A study of Mus musculus with 9 samples.

Results

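The miR-322, miR-503, miR-351 cluster is a run of 7 miRNA hairpins on mouse chromosome X, and its mature arms were followed in subcutaneous fat of mice with and without Ago1 in endothelial cells. The members were 10 mature arms chosen by name: both arms of miR-322, miR-503, miR-351 and miR-542, and the 5p arms of miR-450a and miR-450b. All 10 were among the 860 mature miRNAs in the data, and 9 of the 10 passed the filter on low values that left 489 miRNAs for testing. The remaining 3 arms of the same hairpins, miR-450a-1-3p, miR-450a-2-3p and miR-450b-3p, are given beside them. The cluster was singled out after miR-351-5p and miR-503-5p had been seen to be lower in knockout libraries of this same series, so the differences from WT are a description of those values and not a test of the cluster.

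Ago1 encodes an Argonaute protein, which carries a mature miRNA to its target mRNAs. The 9 small RNA libraries came from 9 individual mice, 3 each of the genotypes labelled WT (wild-type littermates), Hete KO and Homo KO, and the latter pair are endothelial Ago1 knockouts. The age was 24 weeks in all 9. High fat high sucrose feeding had begun at 8 weeks and lasted 16, and no group on another diet was analysed here. The driver of the endothelial deletion, the strain and the sex of the mice are not given in the labels, and the loss of Ago1 was not checked, because only miRNAs were measured. Whole tissue was used, so that fewer cells of a type and less RNA per cell cannot be told apart.

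A hairpin precursor gives a 5p and a 3p arm, and one of them is usually loaded into Argonaute as the guide while its partner is degraded. The guide finds targets mainly through its seed, bases 2 to 8 from the 5′ end, so miRNAs with the same seed share many predicted targets. miR-322 is the mouse counterpart of human miR-424. Together with miR-503 it belongs to the extended miR-15 and miR-16 group, which lowers cyclins and other genes of cell cycle entry. In mouse myoblasts miR-322 and miR-503 rise on differentiation and favour exit from the cycle. In endothelial cells human miR-503 and miR-424 have been linked to reduced proliferation and altered angiogenesis.

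In GRCm38, the assembly that mm10 names, the 7 hairpins lie on the minus strand of chromosome X between 53047997 and 53054349, over 6353 bases. In the direction of transcription the order is Mir322, Mir503, Mir351, Mir542, Mir450-2, Mir450-1 and Mir450b. Mir322 and Mir503 are 200 bases apart, and Mir351 follows 630 bases later. A gap of 3767 bases, which holds the annotated lincRNA Gm28730, parts Mir351 from Mir542. The annotated noncoding transcript C430049B03Rik lies upstream of Mir322 on the same strand, from 53055046 to 53057190. Neither Gm28730 nor C430049B03Rik contains a hairpin of the cluster, and overlap with other annotated genes was not searched.

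The mature sequences below are those of RefSeq (GRCm38.p6), with the seed in capitals. The members are shown because the seeds place miR-322-5p and miR-351-5p in larger families.
miR-322-5p: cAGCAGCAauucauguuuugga
miR-503-5p: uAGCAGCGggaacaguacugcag
miR-351-5p: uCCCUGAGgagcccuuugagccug
miR-542-3p: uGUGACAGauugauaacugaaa
miR-450a-5p: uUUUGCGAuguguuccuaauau
miR-450b-5p: uUUUGCAGuauguuccugaaua
miR-322-3p: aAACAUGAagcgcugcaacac
miR-503-3p: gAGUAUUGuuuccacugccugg
miR-351-3p: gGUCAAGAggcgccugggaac
miR-542-5p: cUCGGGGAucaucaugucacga

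miR-322-5p and miR-503-5p share seed bases 2 to 7 and part at base 8. The full seed of miR-322-5p is also that of 6 other miRNAs in the data: miR-15a-5p, miR-15b-5p, miR-16-5p, miR-195a-5p, miR-195b and miR-497a-5p. The seed of miR-351-5p is that of miR-125a-5p and miR-125b-5p. For the other 8 members no further miRNA in the data had the same bases 2 to 8. miR-450a-5p is made from both Mir450-1 and Mir450-2, with the same mature sequence, so its value cannot be divided between these hairpins. miR-450a-5p and miR-450b-5p agree at 15 of 22 positions counted from the 5′ end, and miR-450a-1-3p and miR-450b-3p at 20 of 22, so that reads of these pairs could be shared, depending on the counting.
For comparison, the seed sharers outside the cluster begin alike and then diverge:
miR-16-5p: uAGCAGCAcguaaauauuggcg
miR-195a-5p: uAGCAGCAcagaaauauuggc
miR-15b-5p: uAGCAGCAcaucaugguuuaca
miR-125a-5p: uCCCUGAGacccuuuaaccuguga
miR-125b-5p: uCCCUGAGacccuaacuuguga

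The deposited values are on a log2 scale with the same highest value, 19.99, in every library, and their back-transformed sums lie between 6681250 and 6681288, so that depth is unknown and values are positions in a shared ranking. Between 63 and 104 miRNAs sat at the floor of the library in WT, between 101 and 152 in Hete KO and between 102 and 141 in Homo KO. Among the marker lists used here, the means differed most over the 9 libraries for skeletal muscle: the mean of 4 of them (miR-206-3p, miR-133b-3p, miR-133a-3p and miR-1a-3p) ran from 7.56 to 13.73 in WT, from 8.76 to 14.35 in Hete KO and from 6.17 to 11.68 in Homo KO. It was highest in Hete KO replicate 2 and WT replicates 2 and 1, and values without these 3 libraries, which leave 1 WT mouse, are given beside the results they touch. In WT replicate 1 the hepatocyte marker miR-122-5p was at 7.48, and in the remaining libraries at 11.71 or more. All 5 epithelial markers (miR-200a-3p, miR-200b-3p, miR-200c-3p, miR-141-3p and miR-429-3p) were highest in Hete KO replicate 1, where their mean was 8.43 against 5.30 to 5.71 in the other knockout libraries and 4.61 to 5.08 in WT.

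Shares on the back-transformed scale, here and below, follow positions in the shared ranking and are not shares of reads. On that scale the cluster was a small part of the adipose miRNAs. Back-transformed to a linear scale and summed over its 13 arms, it held 0.139% ± 0.00348 of the total in WT, 0.102% ± 0.0106 in Hete KO and 0.0952% ± 0.0118 in Homo KO (SD, n = 3 mice each). The knockout libraries lay between 0.0845% and 0.109%, all under the lowest WT library at 0.136%. miR-322-5p alone made up 50.9% to 59.7% of the cluster's sum in the 9 libraries. Its mean log2 value over the 9 libraries, 11.97, was the 82nd highest of the 860. The next members were miR-322-3p (9.87), miR-450a-5p (9.42), miR-351-5p (9.11), miR-503-5p (8.80) and miR-542-3p (8.08). The lower members were miR-503-3p (7.22), miR-450b-5p (6.45), miR-542-5p (6.08) and miR-351-3p (3.35). The members are 21 to 24 bases long, and whether the values are per length is not given in the sources used here. miR-351-3p missed the filter's mean of 3.46, and the lowest single value of the other 9 members was 5.79.

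**Figure D1:**
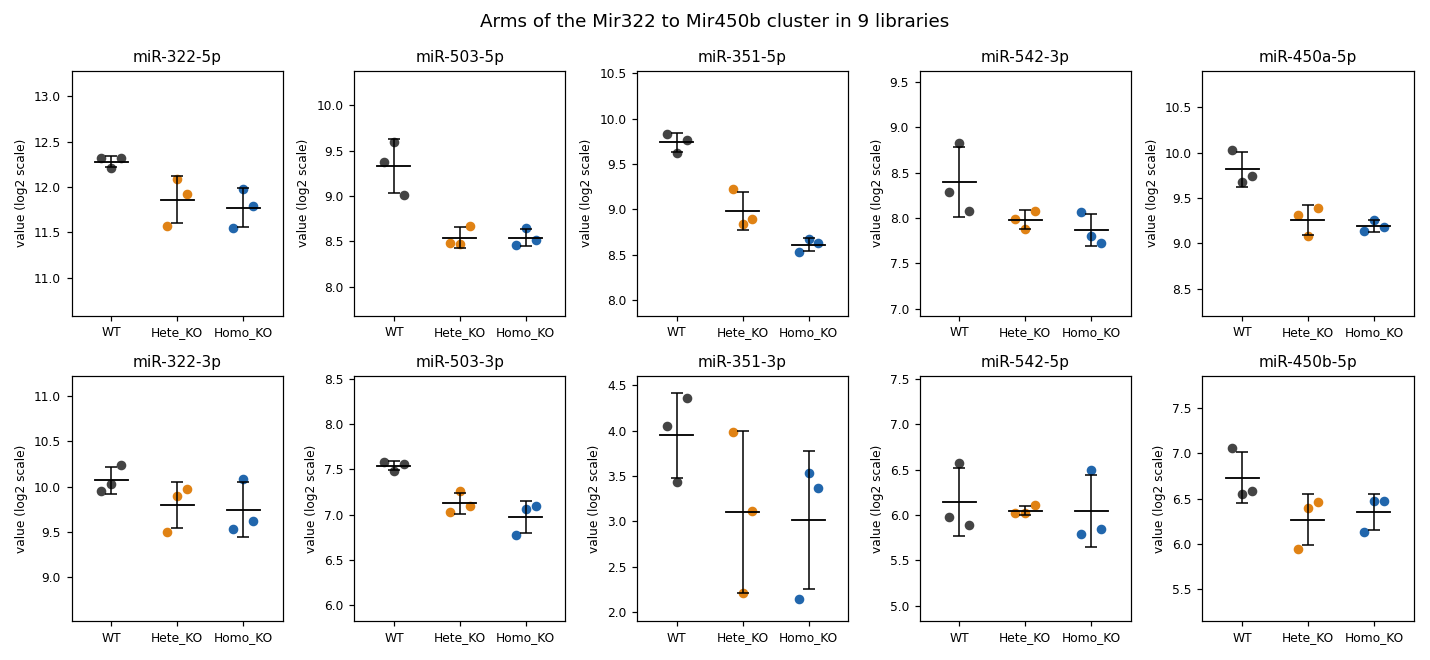
Deposited log2-scale values (vertical axis, the same span in each panel) of the 10 cluster members in the 3 genotypes; points are single mice, lines the mean and bars the SD over 3 mice. miR-351-5p is at 9.62 or more in WT and at 8.67 or less in Homo_KO, while both arms of miR-542 and miR-322-3p lie closer together.

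Every one of the 9 filtered members had a lower mean in Homo KO than in WT, where 45% of the 489 miRNAs did. Their median log2 fold change was -0.53, beside 0.07 over all tested miRNAs. In the limma fit over all 489 miRNAs, 2 of the 9, miR-351-5p and miR-503-5p, had a Benjamini-Hochberg adjusted p under 0.05 on the lower side, and 1.64% of all miRNAs did. An unadjusted p under 0.05 on that side was found for 6 of the 9 and for 10.4% of all. For 7 of the 9, all 3 Homo KO mice lay below all 3 WT mice, which was so for 14.3% of all tested miRNAs, and the opposite order was seen for none of the 9 and for 18.4% of all. These counts come from the contrast that drew attention to the cluster, so nothing is read from them.

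Hete KO was compared with the same WT mice. All 9 members again had lower means, where 52.6% of the 489 miRNAs did, and their median log2 fold change was -0.42, beside -0.02 over all tested miRNAs. None had an adjusted p under 0.05 in the limma fit (0% of all miRNAs on the lower side), and 5 of the 9 had an unadjusted p under 0.05 and a lower mean, with 7.16% of all. For 6 of the 9, the Hete KO mice lay below the WT mice without overlap, against 8.59% of all tested miRNAs.

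miR-351-5p, which shares its seed with the miR-125 family and has been reported to target E2f3 in mouse muscle progenitors, had the lowest fold change of the tested members in Homo KO against WT and, after miR-503-5p, the next lowest in Hete KO. Its values in replicates 1, 2 and 3 were 9.83, 9.62 and 9.77 for WT, 9.23, 8.84 and 8.89 for Hete KO and 8.53, 8.67 and 8.63 for Homo KO, and the same replicate order is kept for the members that follow. The values of the 3 genotypes did not overlap, with those of WT highest and those of Homo KO lowest. This arm helped to single out the cluster, and its difference between the knockout genotypes was not called after adjustment. No order of the knockout genotypes is therefore read from these values. The log2 fold change was -0.75 ± 0.14 in Hete KO and -1.13 ± 0.14 in Homo KO (SE), which leaves 59.4% and 45.8% of the WT level on the back-transformed scale. Of the 489 miRNAs, 3.07% had a lower log2 fold change than this in Homo KO. Without the 3 libraries highest in muscle miRNAs the fold changes were -0.71 and -1.16, and miR-351-5p was not called. With the count of miRNAs at the floor as a covariate they were -0.62 and -0.996, and the whole-table fit then called no miRNA in either contrast.

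The partner arm miR-351-3p was near the bottom of the measured range. It was at 4.05, 3.44 and 4.36 in WT, at 3.98, 2.21 and 3.12 in Hete KO and at 2.14, 3.53 and 3.37 in Homo KO. The genotypes overlapped, and the SD in the knockouts, 0.89 and 0.76, was larger than that of any other member in its group.

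miR-503-5p was also lower in both knockouts. Its values were 9.37, 9.60 and 9.01 in WT, 8.48, 8.47 and 8.67 in Hete KO and 8.46, 8.64 and 8.51 in Homo KO. All 6 knockout mice lay below all 3 WT mice, and the knockout genotypes covered the same range. The log2 fold change was -0.79 ± 0.17 in Hete KO and -0.79 ± 0.17 in Homo KO (SE), or 57.9% of the WT level in each. WT replicates 1 and 2, which were high in muscle miRNAs, were also the WT mice with the most miR-503-5p. Without these and Hete KO replicate 2 the fold changes were -0.44 and -0.47, and miR-503-5p was not called.

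Its partner arm miR-503-3p was at 7.59, 7.48 and 7.56 in WT, at 7.03, 7.26 and 7.09 in Hete KO and at 6.78, 7.07 and 7.09 in Homo KO. Again all knockout mice lay below the WT mice. This gave a log2 fold change of -0.41 ± 0.15 in Hete KO and -0.56 ± 0.15 in Homo KO (SE). Without the 3 libraries highest in muscle miRNAs it was -0.50 and -0.58. This arm had one of the tighter spreads of the data, with an SD within genotype of 0.13 and 6.13% of tested miRNAs below it.

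miR-322-5p, the most abundant member and the one with the full miR-15 and miR-16 seed, was at 12.32, 12.21 and 12.32 in WT. In Hete KO it was at 11.57, 12.09 and 11.92, and in Homo KO at 11.55, 11.98 and 11.79. The knockout mice lay below the WT mice, and replicate 1 was the lowest in each knockout genotype. The log2 fold change was -0.42 ± 0.16 in Hete KO and -0.51 ± 0.16 in Homo KO (SE), or 74.8% and 70.3% of the WT level. Without Hete KO replicate 1 it was -0.27 in Hete KO. Leaving out the 3 libraries highest in muscle miRNAs gave -0.57 in Hete KO and -0.55 in Homo KO.
miR-322-3p was at 9.95, 10.03 and 10.24 in WT, 9.50, 9.90 and 9.98 in Hete KO and 9.53, 10.09 and 9.62 in Homo KO. Here 1 Hete KO and 1 Homo KO mouse reached the WT range. Its log2 fold change was -0.28 ± 0.19 in Hete KO and -0.33 ± 0.19 in Homo KO (SE), and without the 3 libraries highest in muscle miRNAs it was -0.50 and -0.49. Without Hete KO replicate 1 alone it was -0.13 in Hete KO, and without Homo KO replicate 2 alone -0.50 in Homo KO.

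At the far end of the cluster miR-450a-5p was at 10.03, 9.67 and 9.74 in WT, at 9.32, 9.08 and 9.40 in Hete KO and at 9.13, 9.26 and 9.19 in Homo KO. All knockout mice were below the WT mice. On average the log2 fold change was -0.55 ± 0.15 in Hete KO and -0.62 ± 0.15 in Homo KO (SE). With the 3 libraries highest in muscle miRNAs left out it was -0.39 and -0.55.
miR-450b-5p was at 7.06, 6.56 and 6.58 in WT, at 5.95, 6.40 and 6.46 in Hete KO and at 6.13, 6.47 and 6.48 in Homo KO. The groups did not overlap, but the highest knockout library, at 6.48, was close to the lowest WT library, at 6.56, and WT replicate 1 stood above the other WT mice. Its log2 fold change was -0.46 ± 0.21 in Hete KO and -0.37 ± 0.21 in Homo KO (SE). Without WT replicate 1 these were -0.30 and -0.21, and without Hete KO replicate 1 the value in Hete KO was -0.30. Without the 3 libraries highest in muscle miRNAs they were -0.38 and -0.22.

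miR-542-3p, reported elsewhere to repress survivin, was at 8.28, 8.82 and 8.08 in WT, at 7.99, 7.87 and 8.08 in Hete KO and at 8.06, 7.80 and 7.73 in Homo KO. WT replicate 2 was the highest and WT replicate 3 equalled the highest Hete KO mouse. The log2 fold change was -0.41 ± 0.20 in Hete KO and -0.53 ± 0.20 in Homo KO (SE). Without the 3 libraries highest in muscle miRNAs it was -0.04 and -0.22, and without WT replicate 2 alone -0.20 and -0.32.
miR-542-5p ran from 5.79 to 6.58 over the 9 libraries with the genotypes overlapping, and its log2 fold change was -0.10 ± 0.25 in each knockout (SE). Without those 3 libraries it was 0.17 in Hete KO and 0.16 in Homo KO.

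**Figure D2:**
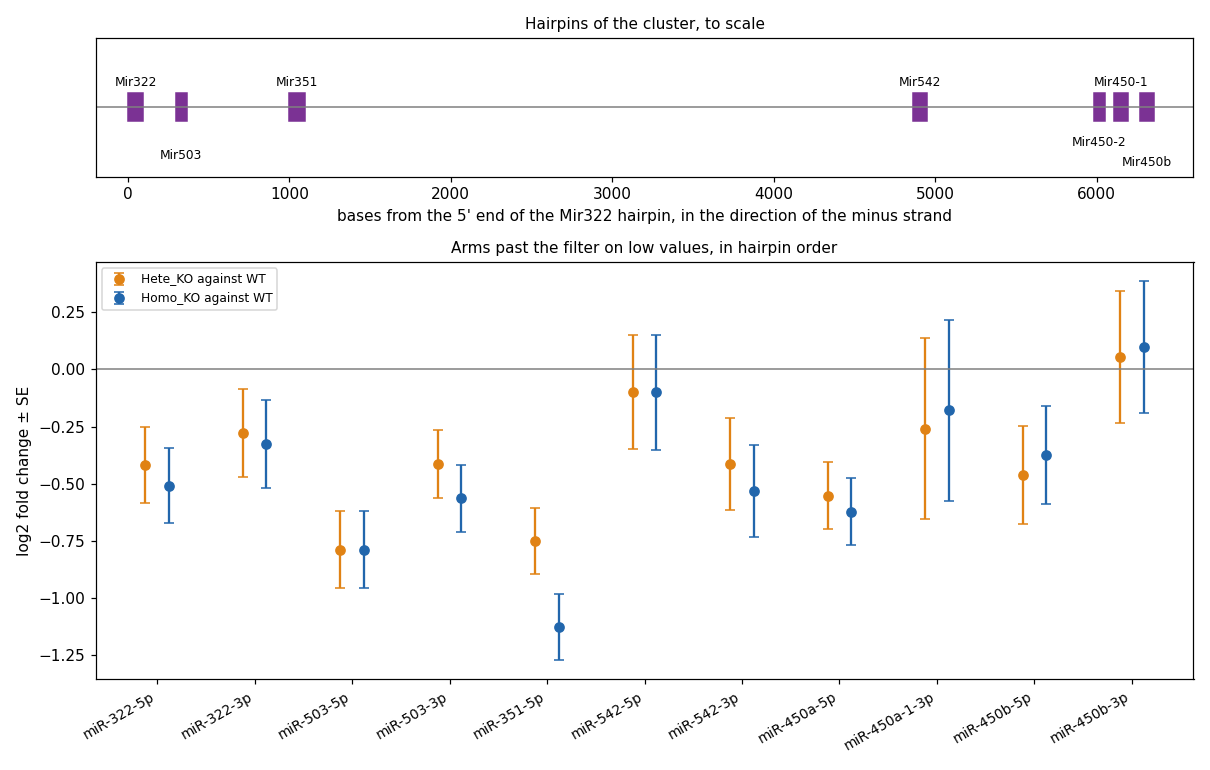
Above, the 7 hairpins drawn to scale by distance in bases from the start of Mir322; below, log2 fold changes against WT (points, bars are SE) of the 11 arms past the filter, in hairpin order. The change runs from -1.13 for miR-351-5p in Homo_KO to 0.10 for miR-450b-3p, and does not fall or rise steadily along the cluster.

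The 3p arms of the miR-450 hairpins, which were not among the 10 members, had fold changes nearer 0 and wider errors than most members. miR-450b-3p was at 6.50, 6.01 and 6.17 in WT, 6.27, 6.10 and 6.46 in Hete KO and 6.71, 6.61 and 5.63 in Homo KO, and its log2 fold change was 0.06 ± 0.29 in Hete KO and 0.10 ± 0.29 in Homo KO (SE). miR-450a-1-3p ran from 3.42 to 4.68 over the 9 libraries, with log2 fold changes of -0.26 ± 0.40 and -0.18 ± 0.40. miR-450a-2-3p ran from 2.21 to 3.91 and missed the filter. All 3 overlapped between genotypes.

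**Figure D3:**
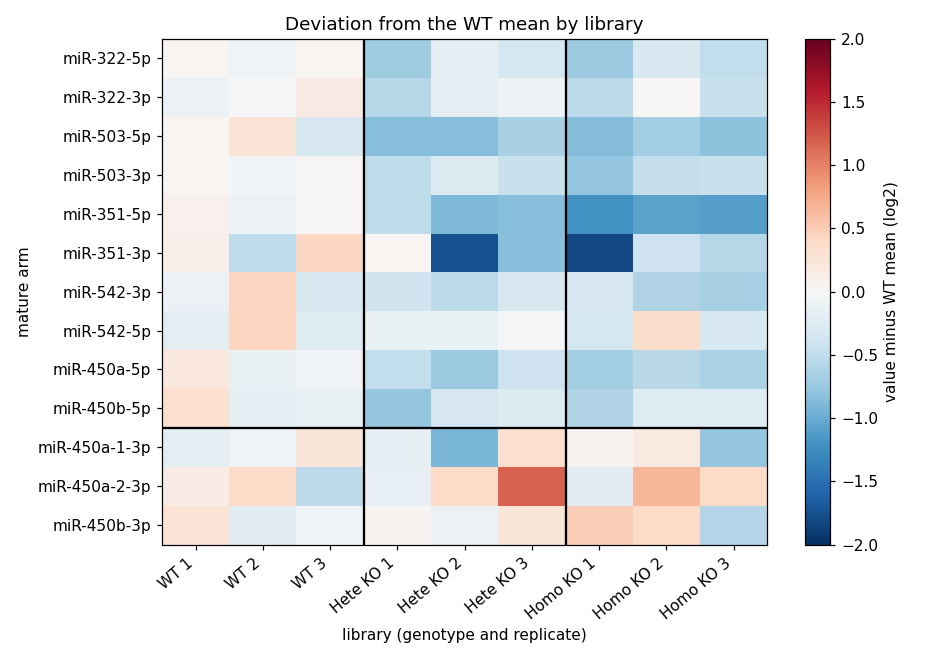
Value of each arm in each library minus its WT mean (colour, log2; blue is lower, red higher), with the 10 members above the horizontal line and the 3 other arms under it. miR-322-5p, both arms of miR-503, miR-351-5p, miR-542-3p, miR-450a-5p and miR-450b-5p are below their WT mean in all 6 knockout libraries. The rare arms miR-351-3p and miR-450a-2-3p vary between single libraries, from -1.81 to 1.18.

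Both arms of a hairpin come from one precursor, and the difference between their log2 values was therefore followed as well. miR-322-5p exceeded miR-322-3p by 2.21 ± 0.15 in WT, 2.07 ± 0.12 in Hete KO and 2.02 ± 0.14 in Homo KO (SD, n = 3 each). miR-503-5p exceeded miR-503-3p by 1.78 ± 0.33, 1.41 ± 0.19 and 1.56 ± 0.13 in the same order, and miR-351-5p exceeded miR-351-3p by 5.79 ± 0.39, 5.89 ± 0.70 and 5.60 ± 0.69. In miR-542 the 3p arm was the abundant one: the 5p arm minus the 3p arm was -2.25 ± 0.06 in WT, -1.93 ± 0.07 in Hete KO and -1.82 ± 0.49 in Homo KO. In miR-450b the 5p arm exceeded the 3p arm by 0.41 to 0.56 in WT. The 5p arm minus the 3p arm ran from -0.32 to 0.30 in Hete KO and from -0.58 to 0.84 in Homo KO. Between Homo KO and Hete KO the arm difference was tested for these 5 hairpins by two-sided exact permutation tests. The p was 0.5 or more in each, and 1 after adjustment over the 5, where 3 mice against 3 cannot give less than 0.1.

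The comparison of Homo KO with Hete KO does not use the WT means, although it shares its knockout libraries with the comparisons above and its error is estimated over all 9 libraries. None of the 9 members passed at an adjusted p under 0.05 (limma, Benjamini-Hochberg over 489 miRNAs), nor did any of the 489 (0%). Without adjustment 41 miRNAs (8.38%) had a p under 0.05, 2.04% on the lower side, and of the members only miR-351-5p was among them. miR-351-5p was lower in Homo KO in 3 of 3 mice, with a log2 difference of -0.38 (95% interval -0.70 to -0.05, limma, adjusted p = 0.593). It was the 1 member whose knockout groups did not overlap, against 3.27% of all miRNAs on the lower side. Its value without single libraries ran from -0.45 to -0.26.
For miR-503-5p the difference was 0.00 (95% interval -0.38 to 0.38), for miR-322-5p -0.09 (-0.46 to 0.28) and for miR-450a-5p -0.07 (-0.40 to 0.26). For miR-503-3p it was -0.15 (-0.48 to 0.18). Each of these intervals spans 0, so the order of the knockout genotypes cannot be given for these members. The intervals are not adjusted for the number of miRNAs. miR-351-5p, whose interval leaves out 0, was not called after adjustment and was among the arms that singled out the cluster. Its order is therefore not given either. Of the 9 members 7 had a lower mean in Homo KO, as had 42.9% of all tested miRNAs. Their median was -0.07, beside 0.04 over all tested miRNAs.

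The members also varied together to different degrees. Across the 9 libraries all 36 pairs of the 9 members had a positive Pearson correlation, from 0.13 to 0.93 with a median of 0.64. The highest were miR-322-5p with miR-503-3p (0.93) and miR-351-5p with miR-450a-5p (0.92), and the 3 lowest all involved miR-542-5p. The libraries share their genotypes and their ranking, so these values describe the genotype difference as much as the mice. Positive values also come in part with the choice of a cluster with arms lower in the knockouts. The share of positive pairs among all tested miRNAs was not computed, so nothing is read from the count. With genotype means removed, the correlation of a member with the mean of the other 8 was 0.62 for miR-503-5p, 0.58 for miR-542-5p and 0.52 for miR-322-5p. It was 0.46 for miR-322-3p, 0.43 for miR-450b-5p, 0.38 for miR-503-3p and 0.16 for miR-450a-5p. For miR-542-3p it was -0.10 and for miR-351-5p -0.32. The 5 miRNAs outside the cluster that are described below ran from -0.23 to 0.81 with the mean of all 9 members. Correlations of this size were thus also found outside the cluster.

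Seed sharers outside the cluster were compared because they could address the same targets. Of the 5 tested sharers of the miR-322-5p seed, 2 had lower and 3 higher means in Homo KO than in WT, with a median log2 fold change of 0.00 and none called. miR-195a-5p, which is transcribed together with miR-497a, was at 12.69, 12.92 and 12.96 in WT and at 13.35, 13.27 and 13.43 in Homo KO, a log2 fold change of 0.49 ± 0.15 (SE). The most abundant, miR-16-5p, had 0.23 ± 0.16, miR-497a-5p 0.00 ± 0.15, miR-15a-5p -0.06 ± 0.11 and miR-15b-5p -0.32 ± 0.18. In Hete KO 3 of the 5 had lower means, with a median of -0.19, and miR-15b-5p was at -0.65 ± 0.18 (SE). miR-195b missed the filter.
On the back-transformed scale miR-322-5p held 11.4% to 11.9% of the family with this seed in WT, 7.05% to 13.1% in Hete KO and 6.76% to 8.81% in Homo KO. The Homo KO range lay under that of WT, and the Hete KO range spanned it.
miR-125a-5p and miR-125b-5p, which share the miR-351-5p seed, had log2 fold changes of 0.50 ± 0.29 and 0.20 ± 0.23 in Homo KO and of 0.32 ± 0.29 and 0.24 ± 0.23 in Hete KO (SE). Neither was called. Both are far more abundant, and miR-351-5p held 1.06% ± 0.35 of the 3 together in WT, 0.511% ± 0.0725 in Hete KO and 0.385% ± 0.0302 in Homo KO (SD, n = 3 each).

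**Figure D4:**
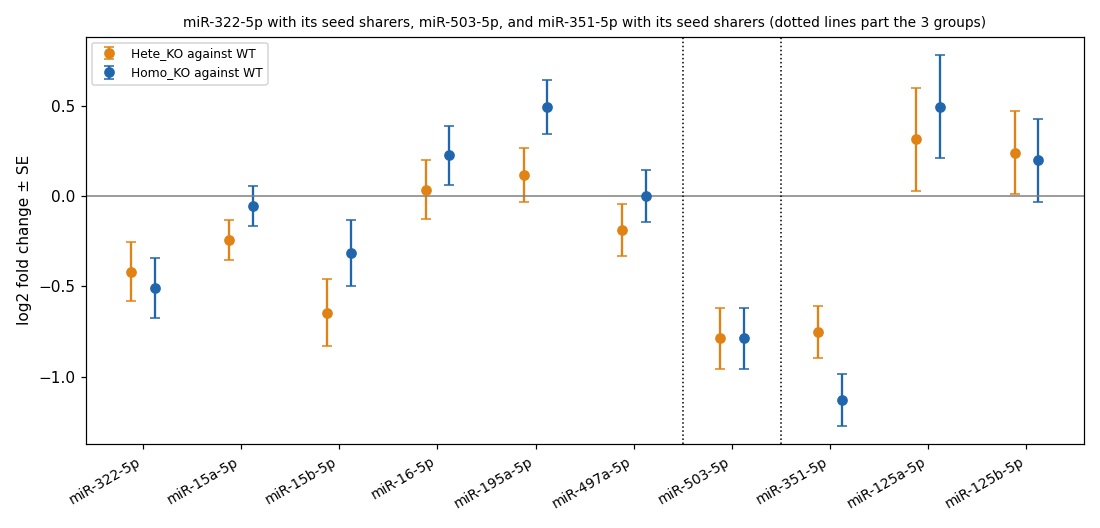
Log2 fold changes against WT (points, bars are SE) of miR-322-5p and the 5 tested miRNAs with its seed, of miR-503-5p, and of miR-351-5p and the miR-125 arms with its seed. miR-503-5p and miR-351-5p lie between -0.75 and -1.13, miR-195a-5p is at 0.49 in Homo_KO, and miR-15b-5p is the seed sharer with the lowest value, -0.65 in Hete_KO.

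Because the cluster is X-linked, the other miRNAs of chromosome X were set beside it, as far as RefSeq places them (405 of the 489 tested miRNAs matched an entry). Of 32 such tested miRNAs 15 had lower and 17 higher means in Homo KO, with a median log2 fold change of 0.03, and in Hete KO 17 were lower and 15 higher, with a median of -0.05. The lowest were both arms of miR-221, a miRNA of endothelium and proliferating cells, with -0.96 ± 0.21 for miR-221-3p and -0.95 ± 0.19 for miR-221-5p in Homo KO (SE), and these were the 2 called. The highest were miR-374c-5p (0.92 ± 0.29) and miR-363-3p (0.78 ± 0.48).

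Outside the cluster, the 5 miRNAs whose values over the 9 libraries were most like the mean of the 9 members were miR-18a-5p (Pearson r = 0.96), miR-152-5p (0.93), miR-126a-5p (0.93), miR-221-5p (0.85) and miR-342-5p (0.84), out of 478 with a median of -0.07. The members' mean is itself lower in the knockouts, so lower knockout values in these 5 come with the choice and nothing is read from them. The log2 fold changes in Homo KO were -0.71 ± 0.14 for miR-18a-5p of the miR-17-92 cluster and -0.71 ± 0.19 for miR-152-5p (SE). They were -0.47 ± 0.14 for miR-126a-5p, which lies in the endothelial gene Egfl7, -0.95 ± 0.19 for miR-221-5p and -1.64 ± 0.29 for miR-342-5p (SE). With genotype means removed, the correlation was 0.80 for miR-18a-5p, 0.70 for miR-152-5p and 0.81 for miR-126a-5p, but -0.15 for miR-221-5p and -0.23 for miR-342-5p.

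Some cell type markers also differed between the genotypes. The mean of the endothelial arms miR-126a-3p and miR-126a-5p was 16.31 to 16.66 in WT, 15.68 to 16.05 in Hete KO and 16.03 to 16.19 in Homo KO, so that all knockout libraries lay below WT in this mean. Of its arms, miR-126a-5p did not overlap, at 14.95 or more in WT and 14.80 or less in the knockouts, and the more abundant miR-126a-3p did, with WT replicate 1, Hete KO replicate 1 and Homo KO replicates 1 and 2 all at 17.58. The mean of 3 leukocyte miRNAs (miR-142a-3p, miR-150-5p and miR-223-3p) was 12.01 to 12.34 in WT, 11.78 to 12.26 in Hete KO and 12.38 to 12.73 in Homo KO. Mural miR-143-3p and miR-145a-5p averaged 16.90 to 17.24 in WT, 16.71 to 17.20 in Hete KO and 17.08 to 17.16 in Homo KO. The mean of 3 erythroid miRNAs (miR-451a, miR-144-3p and miR-486a-5p) was 11.01 to 11.55 in WT, 9.67 to 11.26 in Hete KO and 10.75 to 11.19 in Homo KO. All 3 had lower means in Hete KO than in WT, with a median log2 fold change of -0.70 and miR-451a lowest at -1.09, and in Homo KO 2 of the 3 did, with a median of -0.53. The part of endothelial, leukocyte, erythroid or epithelial content in the cluster's difference was not tested. With the muscle mean as a covariate the members' median log2 fold change was -0.54 in Homo KO and -0.42 in Hete KO, and with the count at the floor as a covariate it was -0.62 and -0.50.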

How the data were processed

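Small RNA libraries were made from Trizol RNA with the TruSeq small RNA kit, per the labels' protocols, and the build was mm10, per the submitters' processing notes. The sources used here name no aligner, counting method or normalization. The deposited log2 values fit a quantile-normalized log2(x + 1) scale, although the file names speak of FPKM. No pseudocount was therefore added. For testing, a mean of 3.46 (the log2 of 10 + 1) or more was required, with 3 or more libraries above their own floor. Groups follow the genotype labels, which give no batch. All 9 libraries entered 1 fit with limma 3.58.1 in R 4.3.3 (variance trend, no covariate, Benjamini-Hochberg over 489 miRNAs). Differences are thus in log2(x + 1) units, which understates changes of rare miRNAs. The fit was also run on simulated data with independent normal noise. That simulation held no shared ranking and no differences in muscle miRNAs or floor counts, so it cannot speak to those features. Arm differences used exact permutation tests in scipy 1.17.1, and figures matplotlib 3.10.9. The members, lists and tests were chosen with earlier results of these data known. The naming rule took all members, the other arms of their hairpins, 2 seed lists, the 2 lowest and 2 highest other X-linked miRNAs and the 5 most alike. Hairpins are those of GENCODE vM21, and all 10 members matched RefSeq.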

Additional observations from a re-analysis of the deposited data

How the results depend on the processing

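The members' median log2 fold change stayed negative against WT in every alternative: without single libraries it was -0.61 to -0.46 in Homo KO and -0.54 to -0.37 in Hete KO, and -0.19 to 0.021 for Homo KO against Hete KO. The count of called members and of all called miRNAs was less stable. In Homo KO against WT, 2 members and 16 miRNAs were called; the counts were 1 and 9 without a filter, 4 and 25 with a mean of at least log2(100 + 1), 1 and 3 with the muscle mean as a covariate, 0 and 8 without the 3 libraries highest in muscle miRNAs (the lone WT mouse is then assumed to vary like the other groups) and 0 and 0 with the count at the floor as a covariate. Without single libraries they were 1 to 3 and 2 to 25. Leaving out WT replicate 1 or 2, Hete KO replicate 3 or any Homo KO replicate left 1 member, miR-351-5p. In Hete KO against WT, 0 members and 2 miRNAs were called; the counts were 2 and 10 with the stricter filter. All miRNAs called were 1 without a variance trend, 10 without those 3 libraries and 0 with the count at the floor as a covariate. Without single libraries they were 0 to 1 and 1 to 24. With the replicate number as a block, 25 miRNAs were called in Homo KO and 15 in Hete KO, with 1 member, miR-351-5p, in the latter. In their deviations from the group means, same-numbered libraries correlated at -0.28 to 0.55 (median 0.38, 9 pairs) and others at -0.70 to 0.54 (median -0.12, 18 pairs). The WT mice are littermates, but the labels do not link same-numbered mice by litter or batch, and 3 same-numbered pairs were below 0. The number was therefore not taken as a pairing in the main fit, and whether it marks one is not known. Homo KO against Hete KO gave 4 calls, none a member, without the 3 libraries highest in muscle miRNAs, and 0 in every other alternative.

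Changes of sign concerned small differences. Without the 3 libraries highest in muscle miRNAs miR-542-5p was at 0.16 in Homo KO and 0.17 in Hete KO against WT, and for Homo KO against Hete KO miR-322-5p was at 0.022, miR-322-3p at 0.0068 and miR-503-5p at -0.035. In that comparison miR-542-5p was at 0.0015 with a pseudocount of 10 and at 0.0079 with libraries shifted to 1 median, and miR-503-5p at -0.0011 with the count at the floor as a covariate. Without single libraries miR-542-5p ran from -0.33 to 0.11 in Homo KO and from -0.23 to 0.12 in Hete KO against WT. For Homo KO against Hete KO the ranges were -0.052 to 0.066 for miR-503-5p, -0.071 to 0.20 for miR-450b-5p, -0.23 to 0.022 for miR-322-5p, -0.22 to 0.062 for miR-322-3p and -0.23 to 0.13 for miR-542-5p. The cause was not tested. With no read counts, precision is known only from the spread between mice.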
